A study of Mus musculus with 153 samples.

Results

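The translation initiation and elongation factors are the genes whose symbols begin with Eif1 to Eif6 or with Eef1 or Eef2, pseudogenes left out. The pattern matched 68 of the 25103 gene symbols of the 6 count tables, and 64 of these are factors. The other 4, Eif2c1 to Eif2c4, are older symbols of the Argonaute genes Ago1 to Ago4, occur only in the Camk2a table at 15 min, and were set apart. In each comparison 60 or 61 factors passed the filter on low counts. It was 60 within the Camk2a set at 15 min, whose table does not list Eef2kmt under that symbol, and in the pooled lysates of the 3 lines at 15 min. Eif3j1 and Eif4e1b passed in no comparison, and Eif3j2 only in the comparisons of another line's enrichment with that of Camk2a at 15 min.

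Protein synthesis starts when eIF2 brings the initiator tRNA to the small ribosomal subunit, with eIF1, eIF1A, eIF3 and eIF5 choosing the start codon. The cap-binding complex eIF4F, made of the cap-binding protein eIF4E, the scaffold eIF4G and the helicase eIF4A, loads the mRNA. Elongation then needs eEF1A, which delivers aminoacyl-tRNAs, the eEF1B subunits that recharge it with GTP, and eEF2, which moves the ribosome along. In neurons these steps are known control points for the protein synthesis that memory requires, through phosphorylation of eIF2alpha, the eIF4E-binding proteins and eEF2.

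RNA came from the dorsal hippocampus of mice carrying a floxed TRAP allele together with a Cre driver, genotypes Pvalb.Cre/TRAPfl, Sst.Cre/TRAPfl and Camk2a.Cre/TRAPfl. Pvalb marks fast-spiking interneurons, Sst another class of interneurons and Camk2a excitatory neurons, and every group of a line carries both alleles. TRAP, translating ribosome affinity purification, pulls tagged ribosomes of the marked cells out of the tissue, so each line has a purified fraction of ribosome-bound mRNA and a total lysate with RNA of all cells. Mice had been shocked in a new context (shock), placed in it without shock (box) or left in the home cage, in sets labelled 15 and 60 min. The labels call the 3 to 6 samples of a group biological replicates but do not give the animals' ages. The tests therefore weigh differences against the spread among these libraries, and nothing in the labels says which animal each came from.

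The 151 libraries held 9043042 to 397228206 listed counts, with a median of 71403674, and no pair within a group agreed within sampling noise. Markers of the labelled class were higher in the purified fraction than in the lysate: 5 of 5 parvalbumin-neuron markers in both Pvalb sets, 6 of 6 and 5 of 6 somatostatin-neuron markers in the Sst sets at 15 and 60 min, and 8 of 8 pyramidal markers in both Camk2a sets. Single purified libraries went against this. An own-class score, the mean log2(CPM + 1) of the markers of the line's class minus that of the markers of other classes (CPM is a gene's count scaled to the library's listed total), was below 0 in 7 of 13 purified Sst libraries at 60 min, all 4 shock ones among them, in 5 of 12 at 15 min, and in 2 of 13 Pvalb libraries at 15 min. The purified Pvalb shock libraries at 60 min also fell apart by base composition. In 4 of the 6, the slope of expression on the GC content of genes, relative to the mean of the set's purified libraries, was above 0.5 log2 units per 10 percentage points of GC. The other two stood at -0.10 and -0.08, and the 6 home-cage libraries lay between -0.50 and -0.28.

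Per kilobase of exon, a few factors dominated in every line. In purified Pvalb libraries at 60 min Eif1, the start-codon selector, averaged 416 CPM per kb, its paralog Eif1b 251, Eif5a 237, Eef1a1 172 and Eef2 149. In purified Sst libraries of that set Eif1 averaged 390 CPM per kb, Eef1a1 388 and Eif5a 374. In the Camk2a ones Eif5a averaged 450 CPM per kb, Eif1 446 and Eef1a1 366. The lowest tested factor in all 3 of these sets was Eif4ebp2, which binds and blocks eIF4E, at 0.184 CPM per kb in Pvalb, 0.514 in Sst and 0.126 in Camk2a. Summed over the 64 factors, the share of all counts was 0.749% to 1.08% in every library.

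In the ribosome-bound RNA of Pvalb neurons at 60 min, shock and home cage differed for many factors, in both directions. Elongation factors, eIF3 subunits and eIF2B subunits made up most of the rise, with Eef2, Eef1d and Eif6 more than 1 log2 unit above home cage. Eif5, Eif4e, Eif4a2 and Eif2s1, the alpha subunit of eIF2, fell. Without the 4 shock libraries of GC slope above 0.5, which leaves 2, 0 of the 61 factors passed. P-values came from edgeR's quasi-likelihood fit and were adjusted over all genes by Benjamini-Hochberg. Of 61 factors 18 rose and 12 fell, or 49.2%. Beside this, 35% of all 16135 genes were called, with 19.7% risen and 15.3% fallen. An unadjusted p under 0.05 was found for 39 factors and for 7180 of all genes. The median log2 fold change was -0.06 for the factors and -0.06 for all genes. In bulk libraries of this kind, fewer cells of a type and less RNA per cell cannot be told apart.

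Eef2, the translocation factor on chromosome 10 (81176631 to 81182498, GRCm38), had the smallest p. It stood at 434, 457, 833, 888, 753 and 851 CPM in the 6 shock libraries, against 262, 287, 343, 342, 244 and 334 CPM in the 6 home-cage ones. The groups did not overlap, but shock libraries 1 and 2, those of low GC slope, were nearer to home cage than to the other 4. The log2 fold change was 1.21 ± 0.19 (SE), with an adjusted p of 0.000594 in edgeR. The 4 box libraries, at 338 to 619 CPM, overlapped both groups. Around its transcription start, the Eef2 promoter holds the cyclic AMP response element TGACGTCA, shown in capitals in RefSeq's sequence of chr10:81176601-81176660 (GRCm38, plus strand):

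Eef2: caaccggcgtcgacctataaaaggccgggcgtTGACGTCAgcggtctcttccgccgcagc

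Searched on both strands in windows from 250 bases before to 50 after the start, this motif, the target of the activity-regulated factor CREB, was found in 1 of the 50 factor promoters in the RefSeq table, 2%, and in 3.36% of the promoters of all tested genes.

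The other elongation factors split. Eef1d, a nucleotide exchange subunit of eEF1B, had 49.2, 107 and 135 CPM (lowest, median, highest) in shock, against 37.3, 42.1 and 48.6 CPM in home cage, a log2 fold change of 1.19 ± 0.21 with an adjusted p of 0.000744 in edgeR. Every shock library was above every home-cage one. Eef1a2, the eEF1A form of mature neurons, had 20.2, 22.9 and 37.2 CPM in shock, against 9.39, 13.7 and 17.7 CPM in home cage, and rose by 0.89 on the log2 scale, while its far more abundant paralog Eef1a1 was not called. Eef1g, a structural subunit of eEF1B, rose by 0.72. Eef1b2, the other exchange subunit, fell by 0.48 and Eef1e1, which also belongs to the multi-tRNA synthetase complex, fell by 0.50. Neither Eef2k, the kinase that inhibits eEF2, nor the methyltransferase gene Eef2kmt was called.

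Among 12 tested eIF3 subunits 6 rose and 2 fell. Eif3d, a subunit that can bind the cap in human cells, had 49.2, 71.7 and 90.8 CPM in shock, against 23.2, 33.7 and 36.7 CPM in home cage, with no overlap and a log2 fold change of 1.09 ± 0.19. Eif3b, a scaffold of the complex, rose with an adjusted p of 0.000852 in edgeR, Eif3g rose by 0.93, Eif3k by 0.94, Eif3i by 0.75 and Eif3f by 0.37. Eif3e fell by 0.83 and Eif3m by 0.52. Exons of Eif3d overlap those of Gm17638 on the opposite strand over 43.3% of its length, and the library kit does not mark the strand.

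eIF2B, the exchange factor that recharges eIF2, contributed 4 risen subunits and 1 fallen one. Eif2b4, its delta subunit, had 40.4, 99.9 and 121 CPM in shock, against 35.3, 39.3 and 44.6 CPM in home cage, a log2 fold change of 1.11 ± 0.22. Here 1 shock library lay within the home-cage range. Eif2b2 rose by 0.99, Eif2b1 by 0.49 and Eif2b5, the catalytic subunit, by 0.44, while Eif2b3 fell by 0.53. Eif2s1, the subunit whose phosphorylation blocks initiation, fell by 0.64. Of the 4 eIF2alpha kinases, Eif2ak1 to Eif2ak4, 0 were called by edgeR, and 1 of them, Eif2ak3, had an unadjusted p under 0.05.

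Eif6, which keeps the large subunit from joining too early, had 48.7, 96.6 and 99.9 CPM in shock, against 26.9, 36.1 and 40.9 CPM in home cage, without overlap, a log2 fold change of 1.22 ± 0.21. Eif5a, which helps ribosomes through difficult peptide bonds, rose by 0.71. Its paralog Eif5a2 had 37.0, 57.2 and 79.5 CPM in shock, against 68.5, 116 and 149 CPM in home cage, and fell by 0.96 ± 0.24 with an adjusted p of 0.00601 in edgeR.

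Most cap-binding and start-site genes were not called, and of those called more fell than rose. Eif5, the GTPase activator for eIF2, had 161, 206 and 355 CPM in shock, against 413, 431 and 484 CPM in home cage, and fell by 0.95 ± 0.19 on the log2 scale (adjusted p 0.00117, edgeR). All shock libraries were below all home-cage ones. Eif4e had 172, 219 and 362 CPM in shock, against 341, 387 and 425 CPM in home cage, fell by 0.72 ± 0.16, and the groups overlapped. Eif4g2, an eIF4G relative that does not bind eIF4E, had 333, 489 and 878 CPM in shock, against 880, 994 and 1092 CPM in home cage, and fell by 0.84 ± 0.22. Of the eIF4F list of 11 tested genes 2 rose, Eif4h by 0.37 and Eif4a3 by 0.47, and 3 fell, with Eif4a2 lower by 0.64 and Eif4a1 not called. Of the 7 start-site genes 2 fell, Eif5 and Eif1a, a scanning factor, which fell by 0.78. Of the 4 eIF4E inhibitors 0 were called by edgeR.

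**Figure D1:**
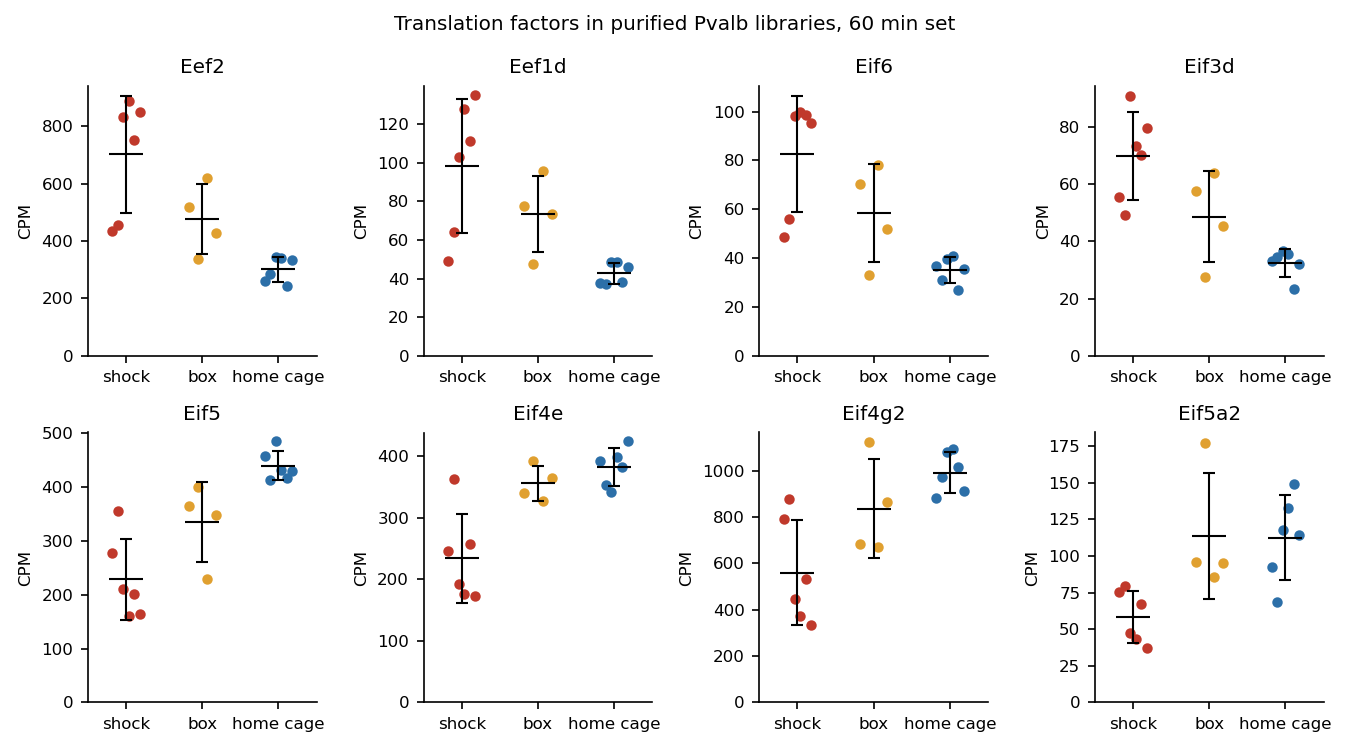
CPM of 8 factors in purified Pvalb libraries at 60 min, by condition (shock, box, home cage); points are libraries and bars the mean ± SD. Eef2, Eef1d, Eif6 and Eif3d sit above the home-cage points in every shock library, while Eif5 and Eif4g2 sit below them.

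Whole groups of libraries did not overlap for 11 factors above and 5 below home cage, beside 10.6% of all genes in either direction. The box libraries, compared with home cage, gave 0 factors by edgeR and 0 by DESeq2, and edgeR called 0% of all genes. At an unadjusted p under 0.05 stood 8 of 61 factors, beside 1829 of all 16135 genes. Shock compared with box also gave 0 factors by edgeR and 5 by DESeq2, and edgeR again called 0% of all genes. An unadjusted p under 0.05 was found for 27 of 61 factors in shock against box, beside 3306 of all 16135 genes. The smallest p there belonged to Eef1a2, with a log2 difference of 0.95 ± 0.24 and an adjusted p of 0.171, to Eif5a2 at -0.96 ± 0.27 and to Eif1a at -0.61 ± 0.17. Without shock library 2, 10 factors passed in that comparison, beside 1419 of all genes. Of 36 partner genes outside the name rule, 10 rose and 13 fell in shock against home cage, among them Dohh, which completes the hypusine of eIF5A and had an adjusted p of 0.000594 in edgeR, Akt1s1, an mTOR complex subunit, at a log2 fold change of 1.22, and Rps6kb1, the S6 kinase, at -0.84. Of 10 mitochondrial translation factors 3 rose and 1 fell, with Tufm, the mitochondrial elongation factor Tu, at 1.17 and Mtif2, an initiation factor, at -0.69.

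The direction of a factor went with its base composition. Over the 61 factors the log2 fold change in Pvalb at 60 min and the GC content of the gene's longest transcript had a Pearson r of 0.80 and a Spearman rho of 0.80, across genes that share the same 12 libraries. The 18 risen factors had a median GC content of 54.5%, the 12 fallen ones 40.7% and the other factors 49.8%. With offsets that remove each library's trend over GC content and exon length, 8 factors were called higher and 0 lower. The share of all genes called in this fit with offsets is not given here. These offsets also recentre each library on the mean log2 deviation of the annotated genes, so they change the scaling too. Of the 18 risen, 7 were called with offsets, Eef1d at 1.40, Eif3d at 0.96, Eif3i at 0.96, Eif3k at 0.63, Eef2 at 0.49, Eef1g at 0.47 and Eif6 at 0.46, and Eef1a1 was added at 0.43. Of the 12 fallen, 0 were called with offsets. In shock libraries 1 and 2 alone against home cage, the log2 differences were 0.58 for Eef2, 0.71 for Eif3d, 0.59 for Eif6 and -0.45 for Eif5. Class markers moved beside this as well. The own-class score averaged 1.95 ± 0.29 over the 6 shock libraries, against 2.14 ± 0.25 over the 6 home-cage ones (SD). Of 8 pyramidal markers 4 were called higher and 1 lower, of 8 GABA-neuron markers 3 lower, of 5 parvalbumin-neuron markers 2 higher, of 8 microglial markers 3 higher, and of 8 astrocyte and 8 oligodendrocyte markers 4 lower and 1 higher each. Their part in the result was not tested.

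**Figure D2:**
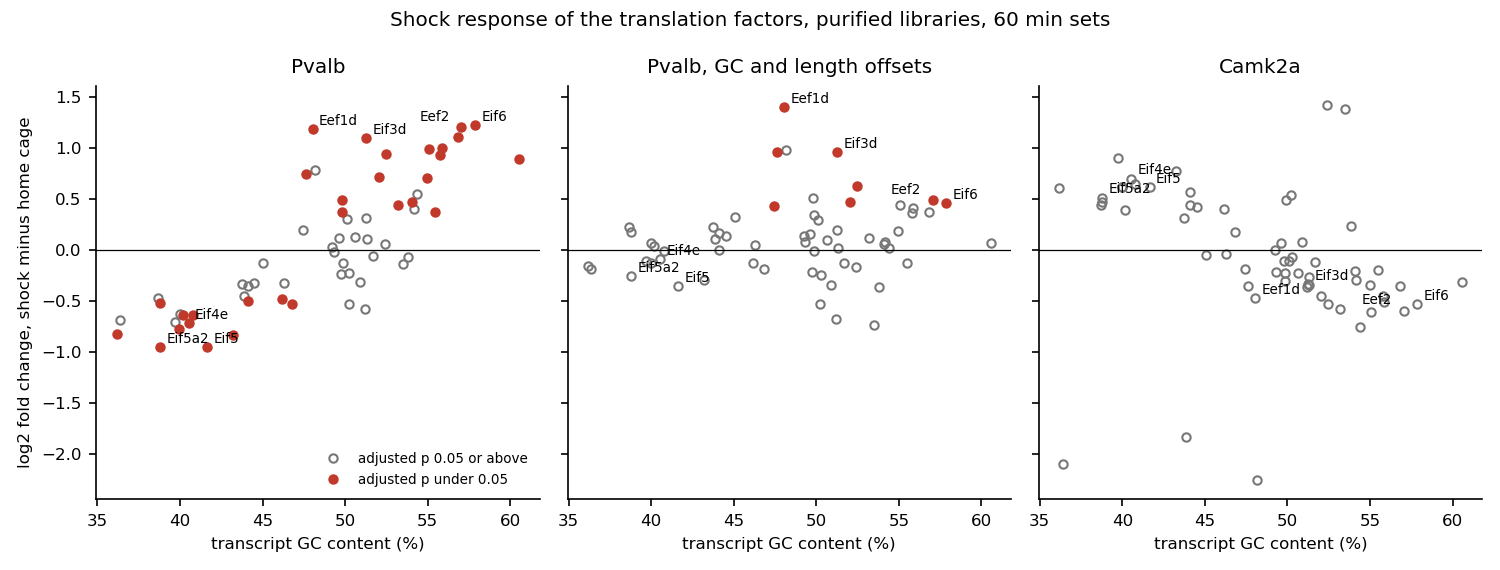
Log2 fold change, shock over home cage, of each factor against the GC content of its longest transcript in percent, for purified Pvalb libraries at 60 min, for the same with GC and length offsets, and for purified Camk2a libraries at 60 min. Filled points had an adjusted p under 0.05. In Pvalb without offsets GC-rich factors lie above 0 and GC-poor ones below, with Pearson's r and Spearman's rho both at 0.80. In Camk2a the trend points the other way and is weaker, with r at -0.29 and rho at -0.56.

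Several promoters of these genes share a second motif. The ETS-type motif CCGGAAGT, common near the starts of housekeeping genes and read on both strands, was found in 9 of the 50 factor promoters, 18%, and in 7.62% of the promoters of all tested genes. Of the 9, 4 belong to risen factors, Eif2b2, Eif2b4, Eif3d and Eif5a, 2 to fallen ones, Eif5a2 and Eef1b2, and 3 to factors that were not called. The motif TGATGCAA, bound by the stress-response factor ATF4, was found in 0 of the 50 and in 0.719% of all. The stretches below show the motif in capitals for the 4 risen factors and Eif5a2, from RefSeq on GRCm38. They lie at chr12:85219451-85219510 (plus strand) for Eif2b2, chr5:31193110-31193169 (minus) for Eif2b4, chr15:77970862-77970921 (minus) for Eif3d, chr11:69920652-69920711 (minus) for Eif5a and chr3:28781215-28781274 (plus) for Eif5a2.

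Eif2b2: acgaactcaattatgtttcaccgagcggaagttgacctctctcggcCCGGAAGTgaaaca
Eif2b4: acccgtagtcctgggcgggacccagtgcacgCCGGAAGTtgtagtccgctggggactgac
Eif3d: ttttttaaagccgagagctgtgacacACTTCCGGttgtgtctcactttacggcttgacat
Eif5a: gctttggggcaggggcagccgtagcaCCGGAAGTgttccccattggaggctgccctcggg
Eif5a2: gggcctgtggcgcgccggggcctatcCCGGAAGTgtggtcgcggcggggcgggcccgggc

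In the Camk2a set at 60 min, several of the same factors had values on the other side of home cage. Eef2 had 395, 416, 575, 594 and 739 CPM in the 5 shock libraries, against 804, 830, 849 and 910 CPM in the 4 home-cage ones. These groups did not overlap, and the log2 fold change was -0.60 ± 0.17, with an adjusted p of 0.0641 in edgeR. Groups were apart for 2 factors above and 7 below home cage, beside 9.73% of all genes in either direction. Eif5 had 191, 215, 244, 297 and 307 CPM in shock, against 146, 169, 181 and 185 CPM in home cage, at 0.62 ± 0.19 with an adjusted p of 0.067. The smallest adjusted p was 0.0563, for Eif1ax, the X-linked eIF1A gene, at 0.90 ± 0.25. By the Y-linked genes 1 of the 5 shock libraries came from males, against 3 of the 4 home-cage ones, and with sex as a covariate 0 factors were called. By edgeR 0 factors were called, beside 2.3% of all genes (1.66% higher and 0.641% lower), while DESeq2 called 7 factors higher and 7 lower. An unadjusted p under 0.05 was found for 25 of 61 factors, beside 3651 of all 14673 genes. Without shock library 3 edgeR called 13 factors, beside 1858 of all genes. Without shock library 2 it called 8, beside 957 of all genes, and without box library 2 it called 2, beside 813. The medians were -0.11 for the factors and -0.02 for all genes. The libraries' GC slope averaged -0.26 ± 0.23 over the 5 shock libraries, against 0.22 ± 0.11 over the 4 home-cage ones (SD).

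The difference between the responses of these lines was tested in one model. The shock response at 60 min was larger in Pvalb than in Camk2a for 23 factors and smaller for 15, or 62.3% of the 61, beside 37.9% of all genes. Eef2 differed by 1.87 ± 0.27 (adjusted p 3.54e-05, edgeR), Eif6 by 1.82 ± 0.28 and Eif5 by -1.49 ± 0.27. With GC and length offsets 5 and 1 were called, and without the 4 Pvalb shock libraries of high GC slope 10 in all. Against Sst the Pvalb response was larger for 16 factors and smaller for 0, beside 18.4% of all genes, led by Eif3g at 1.56 ± 0.30 and Eif2b5 at 1.09 ± 0.22. With offsets 12 were larger and 0 smaller, and without those 4 Pvalb libraries 0 differed. On the Sst side all 4 shock libraries had own-class scores below 0, against 2 of the 5 home-cage ones. The part of these scores in the difference was not tested. Within Pvalb mice at 60 min the response of the purified fraction exceeded that of the lysate for 13 factors and was below it for 8, beside 20.4% of all genes, with Eef2 at 1.09 ± 0.23 and Eif6 at 1.17 ± 0.26. That count was 2 with offsets, 0 without the 4 high-slope Pvalb libraries and 0 with the library number of the labels as a block. The shares of all genes called in these refits are not given here. Each line and set is its own table, so lines and tables cannot be told apart.

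At 15 min 0 factors were called by edgeR in any of the 9 condition comparisons of purified RNA, 3 in each line. In Pvalb, Eef1a2 had 24.6, 27.1, 30.5, 37.0 and 42.4 CPM in shock, against 15.0, 15.1, 16.5 and 20.5 CPM in home cage, at 0.84 ± 0.23 with an adjusted p of 0.239 in edgeR. Those groups did not overlap, which held for 2 factors above and 0 below home cage, beside 3.87% of all genes in either direction. Eif3b, the eIF3 scaffold, was at 0.93 ± 0.24 and Eif5 at -0.71 ± 0.20, with the same adjusted p. Of 61 factors 15 had an unadjusted p under 0.05 in that comparison, beside 2413 of all 15484 genes. DESeq2 called 4 factors, and edgeR called 0% of all genes. Pvalb shock against box at 15 min had 19 factors at an unadjusted p under 0.05, beside 2411 of all 15484 genes. DESeq2 called 6 factors there. In Sst at 15 min Eif5 had 149, 154, 197, 225 and 253 CPM in shock, against 245, 403, 467 and 534 CPM in home cage, at -1.22 ± 0.35 with an adjusted p of 0.0857 in edgeR. Own-class scores were below 0 in 4 of these 5 Sst shock libraries and in 0 of the 4 home-cage ones. In Pvalb at 15 min this held for 2 of 5 and 0 of 4. GC slopes averaged 0.27 ± 0.36 in Sst shock, against -0.33 ± 0.43 in home cage (SD). In Pvalb they averaged 0.28 ± 0.21, against -0.16 ± 0.23. The part of scores and slopes in these values was not tested. In that Sst comparison 13 of 61 factors had an unadjusted p under 0.05, beside 3496 of all 16046 genes. DESeq2 called 7 factors, and edgeR called 1.21% of all genes. In Camk2a at 15 min the smallest adjusted p in edgeR was 0.503, for Eef2 at 0.91 ± 0.25. Here 7 of 60 factors had an unadjusted p under 0.05, beside 1288 of all 14542 genes. DESeq2 called 0 factors, and edgeR called 0% of all genes. The Pvalb response at 60 min did not differ from that at 15 min for any factor by edgeR, with 0 factors and 0% of all genes called. An unadjusted p under 0.05 was found for 5 factors, beside 1531 of all 16642 genes. The Eef2 response was larger at 60 min by 0.67 ± 0.30, at an adjusted p of 0.503 in edgeR.

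In the Sst set at 60 min a pair of eIF3 subunits passed in shock against home cage, beside 4.49% of all genes (2.34% higher and 2.15% lower). Eif3c, a core subunit, had 249, 278, 324 and 560 CPM in shock, against 137, 140, 156, 201 and 234 CPM in home cage, at 0.93 ± 0.24 with an adjusted p of 0.0453. Eif3m had 73.0, 77.9, 78.8 and 99.2 CPM in shock, against 104, 116, 143, 151 and 182 CPM in home cage, at -0.85 ± 0.21 with an adjusted p of 0.0373 (both edgeR). Neither gene's groups overlapped, and in this comparison 1 factor of 61 lay wholly above and 2 wholly below home cage, beside 10.6% of all genes in either direction. Against box, where 8.18% of all genes were called, Eif3c and Eif3m passed again and Eef1e1 was lower, with 20.2, 29.1, 30.8 and 40.1 CPM in shock, against 50.5, 62.6, 73.8 and 109 CPM in box, at -1.44 ± 0.35. Of the class markers, 3 of 6 somatostatin-neuron and 5 of 8 GABA-neuron ones were lower in shock than in home cage and 4 of 8 oligodendrocyte ones higher, and their part in the result was not tested. All 4 of these shock libraries had own-class scores below 0, between -2.97 and -2.39, and with that score as a covariate 0 factors passed against home cage. DESeq2 called 6 in each comparison. Leaving out single libraries gave 0 to 2 calls against home cage, with 0 when box 3, home-cage 2 or 5, or shock 3 or 4 was left out, and 0 to 3 against box, with 0 without box 1 or 4 or shock 4. Of all genes these refits called 89 to 831 against home cage and 206 to 1320 against box. With GC and length offsets Eif3c had 0.73 and Eif3m -0.83 against home cage and neither was called. Another 6 factors were then called lower and 0 higher, and the share of all genes called with offsets is not given here.

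In the lysates, fitted over the 3 lines with line as a covariate, 0 factors were called in any of the 6 comparisons by edgeR or by DESeq2. Shock against home cage had 4 factors at an unadjusted p under 0.05 at 60 min, beside 558 of all 16696 genes. At 15 min it had 3, beside 922 of all 16067 genes. Of all genes 0% and 0.118% were called at 60 and 15 min. The other 4 comparisons had 0 factors at an unadjusted p under 0.05. Eef2 in the Pvalb lysates at 60 min ran from 401 to 721 CPM in shock, against 480 to 663 CPM in home cage, so the groups overlapped.

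Compared with the lysate, the purified fraction held more mRNA of many factors in every line. Eif1, Eif1ad, Eif5b, Eif3f, Eif3h, Eif3i, Eef1a2, Eef1b2 and Eef1g were called higher in all 6 sets, 9 of the 60 factors tested in every set, beside 5.31% of all genes. No factor was called lower in all 6, where 2.37% of all genes were. In Pvalb at 60 min 27 factors were higher and 12 lower out of 61, beside 60.4% of all genes called, 28% of them higher. The Sst sets had 29 higher and 3 lower at 15 min and 29 and 13 at 60 min, beside 44.5% and 59.4% of all genes. The Camk2a sets had 28 higher and 3 lower of 60 at 15 min and 27 and 7 at 60 min, beside 50.7% and 57.5%. Pvalb at 15 min had 26 and 11, beside 45.6%.

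The factors' median log2 enrichment, beside that of all genes, was 0.12 and -0.13 in Pvalb at 60 min, 0.17 and -0.15 at 15 min, 0.30 and 0.11 in Sst at 60 min, 0.34 and -0.05 at 15 min, 0.22 and -0.26 in Camk2a at 60 min and 0.24 and -0.14 at 15 min. These values depend on the scaling. With total counts as the library size in place of TMM factors, log2 enrichments were lower by 0.24 to 0.41 in 5 sets and by 0.02 in Sst at 60 min. The factors' median then lay between -0.16 and -0.05 in those 5 sets, still above the all-gene median of -0.56 to -0.39, and 6 calls changed sign, namely Eif3c in Camk2a at 15 min, Eif4a3, Eif4g3 and Eif4h in Camk2a at 60 min, and Eif2s1 and Eif3h in Pvalb at 60 min. With GC and length offsets 41 to 54 factors were higher and 0 to 2 lower in those 5 sets, and 33 and 3 in Sst at 60 min. The offsets recentre each library as well, so these counts depend on that change of scaling too. The share of all genes called with offsets is not given here. In that last set enrichment went with GC content, with r of 0.83 over 61 factors, and the lysates' GC slopes spread from -0.64 to 1.02. Without the purified Sst libraries of own-class score below 0, 25 factors were called there in place of 42.

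By role, all 7 genes listed as start-site ones were called higher in Pvalb at 60 min, and 3 to 6 in the other sets. The list holds Eif1, Eif1a, Eif1ad, Eif1ax, Eif1b, Eif5 and Eif5b. In Sst at 60 min 3 of the 7 were called lower, as was 1 in Camk2a at 60 min. Among those higher in Pvalb at 60 min was Eif1ad, an eIF1A-domain protein, with a log2 enrichment of 1.56 ± 0.07 and medians of 109 CPM in the purified fraction and 45.3 CPM in the lysate. Exons of Eif1ad overlap those of Banf1 on the opposite strand over 15.3% of their length, and those of Eif5b overlap Rev1 over 16.8%. The library kit does not mark the strand. The elongation factors had 4 of 7 higher and 1 lower in Pvalb at 60 min, and 6 or 7 of 7 higher in both Sst and both Camk2a sets. Eef1b2 was enriched by 1.28 ± 0.09 in Pvalb at 60 min, 1.80 ± 0.11 in Sst at 15 min and 1.64 ± 0.11 in Camk2a at 15 min. Of 12 eIF3 subunits 7 to 9 were higher in each set, while 2 were lower in both Pvalb sets and 1 in both Camk2a sets and in Sst at 60 min. Eef2k, whose product inhibits eEF2, went the other way in both Pvalb sets and in Sst at 15 min, with a log2 enrichment of -0.61 ± 0.14 in Pvalb at 60 min and medians of 10.2 CPM in the purified fraction and 18.8 CPM in the lysate.

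**Figure D3:**
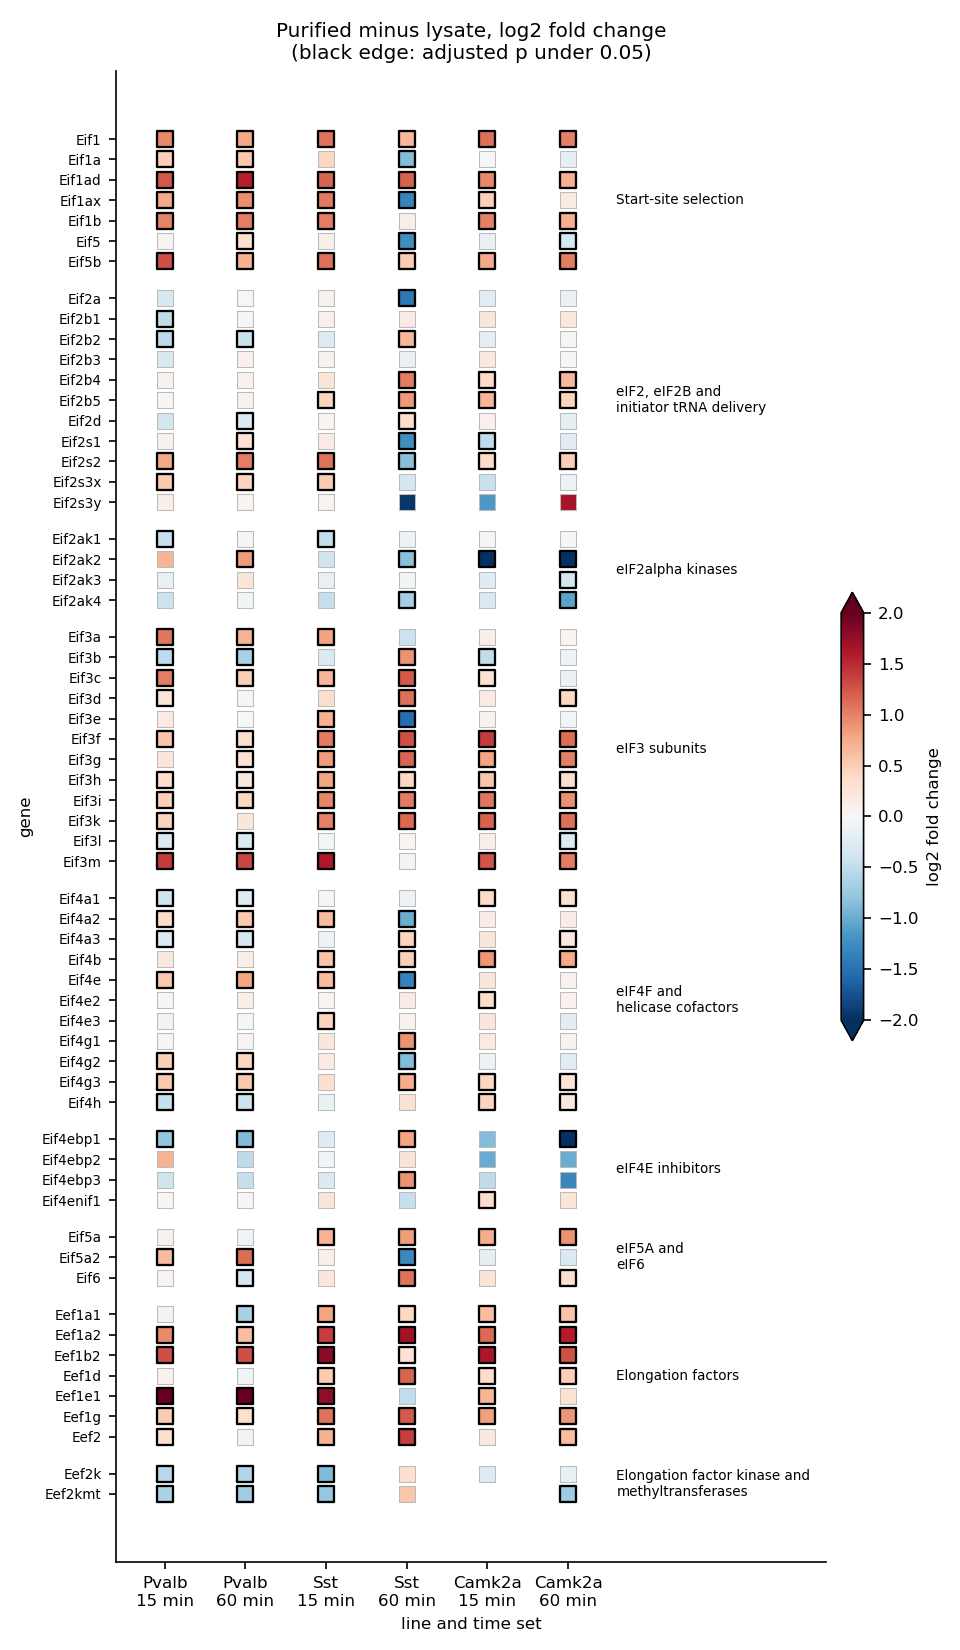
Log2 enrichment of the 61 tested factors, purified fraction over lysate, in the 6 sets, as a colour from lower (blue) to higher (red), with a black edge where the adjusted p was under 0.05. The 9 factors called higher in all 6 sets, such as Eif1 and Eif3f, are red and edged across the page, and Eif4a2 is red in Sst at 15 min and blue in Sst at 60 min.

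The lines differed for the abundant eEF1A gene. Eef1a1 ran at 363, 421 and 543 CPM (lowest, median, highest) in the purified Pvalb fraction at 60 min, against 683, 793 and 1081 CPM in the lysate, with no overlap and a log2 enrichment of -0.64 ± 0.06. In Camk2a at 60 min the purified fraction had 618, 930 and 1104 CPM, against 562, 807 and 883 CPM in the lysate, at 0.57 ± 0.09 with overlap. The difference of the enrichments, Pvalb minus Camk2a, was -1.29 ± 0.11 at 60 min (adjusted p 4.9e-15, edgeR) and -0.69 ± 0.16 at 15 min. Against Sst it was -0.98 ± 0.11 at 60 min and -0.80 ± 0.18 at 15 min, the one factor called at 15 min between these lines, where 6.34% of all genes were. The paralog Eef1a2, with 80.1% of coding bases identical to Eef1a1, was enriched in all 6 sets.

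Eef1e1 ran the other way. In Pvalb at 60 min it had 112, 174 and 242 CPM in the purified fraction, against 36.7, 44.8 and 59.1 CPM in the lysate, a log2 enrichment of 2.21 ± 0.10, the largest of any factor in that set. In Camk2a at 60 min it had 31.8, 43.6 and 75.5 CPM, against 37.8, 47.8 and 55.1 CPM, at 0.28 ± 0.13, which was not called. At 15 min Eef1e1 was called higher in all 3 lines, by 0.68 in Camk2a, 1.77 in Sst and 2.05 in Pvalb. In Sst at 60 min it stood at -0.50 and was not called. The lines differed by 1.87 ± 0.15 at 60 min and by 1.38 ± 0.26 at 15 min, Pvalb minus Camk2a. Eif5a2 was enriched by 1.12 ± 0.16 in Pvalb at 60 min, with a difference to Camk2a of 1.36 ± 0.23, while Eif5a differed by -1.05 ± 0.13. Eif2ak2, the kinase PKR that senses double-stranded RNA, had 0, 0.356 and 4.19 CPM in purified Camk2a libraries at 60 min, against 2.40, 4.11 and 10.1 CPM in the lysate. In Pvalb it had 0.887, 6.74 and 13.9 CPM, against 1.69, 4.47 and 11.6 CPM, and the lines differed by 2.97 ± 0.71 at an adjusted p of 0.000414.

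**Figure D4:**
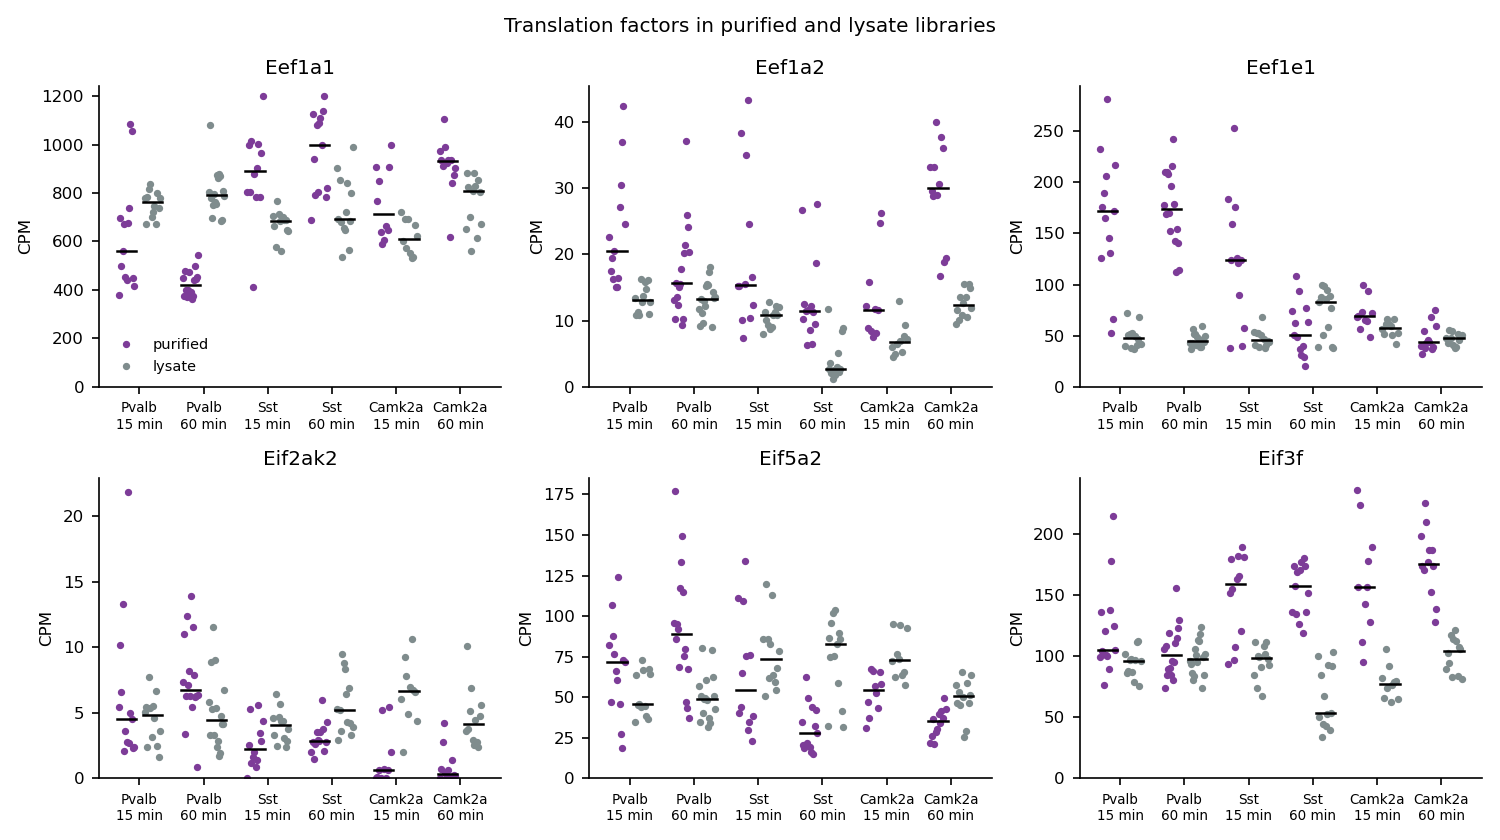
CPM of 6 factors in the purified fraction and the lysate of each of the 6 sets, on linear axes from 0; points are libraries and lines medians. The Eef1a1 median lies below that of the lysate in the Pvalb set at 60 min and above it in the Camk2a set, and the Eef1e1 median lies far above that of the lysate in both Pvalb sets.

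Counting all factors, 17 were more and 24 less enriched in Pvalb than in Camk2a at 60 min, 67.2% called beside 51.8% of all genes. At 15 min it was 10 and 13, 37.7% beside 35.6%. Eif4h, a helicase cofactor, was less enriched at both times, by -0.73 ± 0.09 at 60 min and -0.89 ± 0.11 at 15 min, and Eif3f by -0.84 ± 0.12 and -0.81 ± 0.18. Sst against Camk2a gave 7 more and 3 less at 15 min, 16.4% beside 23.3%, with Eef1e1 at 1.06 ± 0.28 and Eif4h at -0.61 ± 0.13. It gave 11 and 19 at 60 min, 49.2% beside 49.9%. Pvalb against Sst at 60 min gave 21 and 27, 78.7% beside 63%. Without the purified Sst libraries of own-class score below 0, Sst against Camk2a gave 6 in all at each time, and Pvalb against Sst 6 at 15 min in place of 1 and 41 at 60 min. With single libraries left out, Pvalb against Sst at 15 min gave 1 to 7, the highest without Sst box purified library 2. Of all genes these refits called 791 to 1750. The median shift of all genes at 60 min, TMM minus total counts as library size, was -0.34 for Sst minus Camk2a and 0.32 for Pvalb minus Sst, and 0 called factors changed sign.

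The sex-linked pair of eIF2 gamma genes served as a check of the libraries. Eif2s3y, on chromosome Y, had 8.57 to 75.4 CPM (median 23.2) in the 40 lysates in which Ddx3y, Kdm5d and Uty, other Y-linked genes, summed to over 5 CPM, and 0 to 0.304 CPM in the other 35. Its X-linked partner Eif2s3x had medians of 7.86 CPM in those 40 lysates and 11.8 CPM in the other 35, and of 7.79 and 10.6 CPM in the 41 and 35 purified libraries split in the same way. The fractions of one label number matched in 66 of 72 cases and did not in 6. The coding sequences are identical at 86.3% of aligned bases, so some reads may fit both genes. The first 60 coding bases differ at 13, in capitals here:

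Eif2s3y: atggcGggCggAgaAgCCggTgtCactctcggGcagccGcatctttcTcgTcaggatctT
Eif2s3x: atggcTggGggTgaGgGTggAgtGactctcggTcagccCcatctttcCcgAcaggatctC

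**Figure D5:**
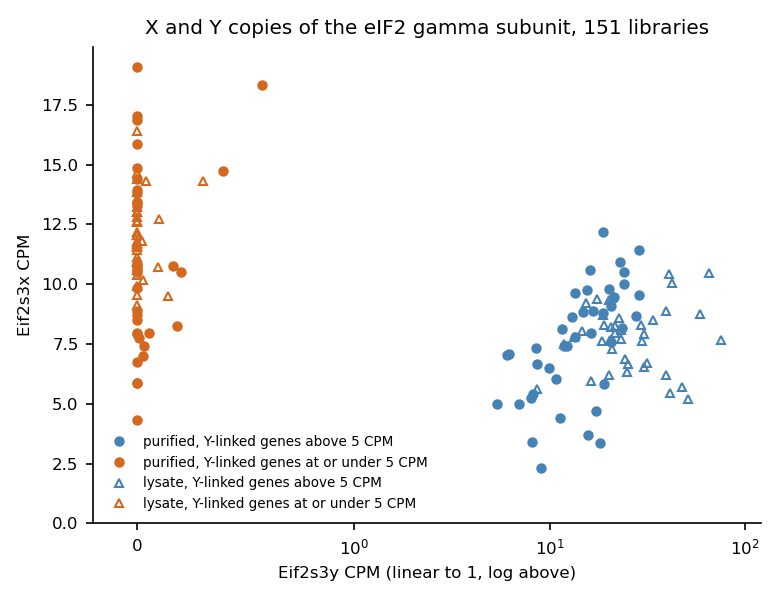
CPM of Eif2s3x (vertical) against Eif2s3y (horizontal, linear to 1 and logarithmic above) in the 151 libraries; filled points are purified libraries, triangles lysates, and colour marks whether the other Y-linked genes summed to over 5 CPM. Eif2s3y lies above 5 CPM in one group of libraries and below 1 CPM in the other, and the Eif2s3x medians are lower where Eif2s3y is present.

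Other paralog pairs stood far apart in level. Eif4a2 had a median of 425 CPM in purified Pvalb libraries at 60 min and Eif4a1 75.3 CPM, and in the shock comparison Eif4a2 alone of this pair was called. Eif1 and Eif1b had medians of 889 and 274 CPM, Eif5a and Eif5a2 492 and 89.1 CPM, and Eif4ebp1 and Eif4ebp2 3.04 and 1.08 CPM. Eif3j1 and Eif3j2, identical over all 783 aligned coding bases, stayed at or below 0.663 CPM in every library, so the level of this subunit cannot be read from these counts.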

How the data were processed

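Poly(A) RNA was made into Nextera XT libraries, a kit that does not mark the strand, per the labels' protocols. The deposited files hold raw counts per gene, 1 table for each line and set, 6 in all. The submitters' processing notes name STAR 2.7.7a, featureCounts, DESeq2 and GRCm38. No header gives filters or the annotation. All 151 sample columns were used, 3 of them matched only to their group, and 2 labelled samples of the Camk2a box group at 60 min were not analysed here.

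Library sizes were scaled by TMM, and genes were filtered with filterByExpr. Tests used edgeR 4.0.16's quasi-likelihood fit in R 4.3.3, with Benjamini-Hochberg adjustment over all tested genes and a threshold of 0.05. Condition comparisons used the purified libraries of 1 line and set. Lysate comparisons pooled the lines with line as a term. Enrichment used purified minus lysate over the conditions of a set, and differences between lines or times were interaction terms. CPM divides counts by the library's listed total, and errors of log2 values are SEs. Total counts of 9043042 to 397228206 set the counting precision. GC content, exon lengths, coordinates and coding sequences came from GENCODE M21 and promoters from RefSeq, both on GRCm38.

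The members and lists were chosen with earlier results of these data known. Named factors are, per comparison, up to 8 higher and 8 lower called ones by smallest p, or up to 3 where none was called, with the paralog pairs set side by side and any other factor open to naming for its role. Of other lists, up to 4 called genes are named. Alternatives were DESeq2 1.42.0, its size factors in edgeR, no filter, a replicate block, GC and length offsets, the own-class score or sex as covariate, and each library left out. Offsets in the enrichment and interaction fits, leaving out the low-score Sst or high-slope Pvalb libraries, and total counts as library size were added after seeing the data.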

Additional observations from a re-analysis of the deposited data

Results flagged for a closer look

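Single libraries far from the others were looked for in 75 tests, each of 1 measure (the factors' summed share, or 1 factor's CPM in the purified Pvalb set at 60 min) within a group of 4 to 6 libraries. In 4 of them 1 library stood apart, and chance alone marks about 1 in 20. The factors' summed share of counts reached 1.02% in 1 purified Pvalb box library at 15 min, and 0.856% in 1 Pvalb home-cage lysate at 60 min. Eif3d had its lowest value, 23.2 CPM, in 1 purified Pvalb home-cage library at 60 min, and Eif5a2 its highest, 177 CPM, in 1 purified Pvalb box library of the same set.

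Differences between groups were tested as interaction terms in edgeR. At 15 min the enrichment in the purified fraction differed for 23 factors between Pvalb and Camk2a, or 37.7%, beside 35.6% of all genes. It differed for 10 between Sst and Camk2a, 16.4% beside 23.3%, and for 1 between Pvalb and Sst, 1.64% beside 6.34%. At 60 min these counts were 41, 30 and 48, or 67.2%, 49.2% and 78.7%, beside 51.8%, 49.9% and 63% of all genes. The shock response at 60 min differed for 38 factors between Pvalb and Camk2a, 62.3% beside 37.9% of all genes. It differed for 16 between Pvalb and Sst, 26.2% beside 18.4%. Between the purified fraction and the lysate of Pvalb mice it differed for 21, 34.4% beside 20.4%. All 4 Sst shock libraries at 60 min had own-class scores below 0.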

How the results depend on the processing

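Counts are of called factors. Total counts or DESeq2 size factors as scaling left all counts within 1.5 times. DESeq2 called 14 factors in place of 0 for shock against home cage in Camk2a at 60 min, 4 in Pvalb at 15 min and 7 in Sst at 15 min in place of 0, and 6 in Sst at 60 min in place of 2. Against box it called 6 in Pvalb at 15 min and 5 at 60 min in place of 0, and 6 in Sst at 60 min in place of 3. It called 4 in place of 1 for the 15-min enrichment of Pvalb minus Sst. The shares of all genes called by DESeq2 are not given here. Without the filter on low counts, shock against home cage at 60 min gave 1 in Camk2a and 1 in Sst. The own-class score or sex as covariate gave 0 there in Sst.

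GC and length offsets gave 8 for the Pvalb response at 60 min in place of 30, and 6 for the Sst one in place of 2, all 6 lower and 0 of the 2 among them. For Sst shock against box at 60 min they gave 11, all lower, in place of 3, with 1 of the 3 kept. They gave 6 in place of 38 for the difference of the Pvalb response to Camk2a and 2 in place of 21 for that to the lysate. For enrichment they gave 49 in place of 31 and 55 in place of 34 in Camk2a at 15 and 60 min, and 51 in place of 32 in Sst at 15 min. The recentring of each library by the offsets is part of these changes, and the shares of all genes called with offsets are not given here. For enrichment differences they gave 13 in Pvalb minus Sst at 15 min and 46 in Sst minus Camk2a at 60 min.

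Without the 4 Pvalb shock libraries of GC slope above 0.5, the response differed from Camk2a for 10 factors, from Sst for 0 and from the lysate for 0, and itself had 0. Without the low-score Sst libraries the enrichment count was 25 in Sst at 60 min in place of 42. The differences then had 6 at both times for Sst minus Camk2a and 6 at 15 min for Pvalb minus Sst. These removals leave fewer libraries. Apart from that, the cause was not tested.

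Same-numbered libraries did not all correlate above 0.1 in any set (in Pvalb at 60 min 3 of 11 pairs of purified libraries did, with a median of 0.01). Pairs of a purified library and the lysate of one number did in 9 of 10 in Camk2a and 9 of 11 in Pvalb at 15 min, but in 5 of 14 in Pvalb at 60 min, and their sex by Y-linked genes differed in 6 of 72 pairs, so whether a number marks 1 animal is not settled. With the number as a replicate block, the Pvalb response at 60 min had 23 calls and its difference to the lysate 0, the Sst response 0, and the 15-min Pvalb minus Sst enrichment 0. The block with offsets gave 1 in Pvalb and 0 in Sst. Of single-factor results 194 kept their side of the threshold under the block and 27 did not.

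Leaving out each library in turn gave 24 to 36 for the Pvalb response at 60 min, 0 to 13 for Camk2a at 60 min, 0 to 10 for Pvalb shock against box at 60 min and 0 to 2 for Sst at 15 min, with 2 without home-cage library 4. Of all genes, these 4 sets of refits called 4289 to 6828, 0 to 1858, 0 to 1419 and 0 to 820. In Sst at 60 min leaving out gave 0 to 2 factors against home cage and 0 to 3 against box, beside 89 to 831 and 206 to 1320 of all genes. For Pvalb minus Sst enrichment at 15 min it gave 1 to 7 factors. That count was 7 without Sst box purified 2, 6 without Sst home-cage purified 2, 5 without Sst shock purified 3 and 3 without Sst box purified 1, Pvalb box purified 1 or Pvalb shock purified 4. It was 2 without Sst box lysate 2, Pvalb home-cage purified 1 or Pvalb shock lysate 4.

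Of the factors picked by the naming rule, 29 values changed sign with offsets and 2 with the block and offsets, on the log2 scale. In the Pvalb response Eif3m came to 0.18 and Eif4a2 to 0.034, or 0.18 and 0.025 with the block, and in its difference to Camk2a Eif3m to 0.11 and Eif4a2 to 0.072. In Pvalb enrichment at 15 min Eif2ak1 came to 0.017, Eif3b to 0.10, Eif4a1 to 0.020 and Eif4h to 0.20, and at 60 min Eif3l to 0.081, Eif4a3 to 0.052 and Eif4h to 0.21. In Sst enrichment Eif2ak1 came to 0.019 at 15 min, and Eif1ax to 0.083, Eif2s1 to 0.058, Eif3e to 0.14, Eif4a2 to 0.36 and Eif5a2 to 0.20 at 60 min. In Camk2a enrichment Eif2s1 came to 0.45 and Eif3b to 0.19 at 15 min, and Eef2kmt to 0.025, Eif2ak3 to 0.42, Eif3l to 0.63 and Eif5 to 0.58 at 60 min. In the 60-min differences Eif3a came to -0.067 in Pvalb minus Camk2a, Eif3m to -0.045 in Pvalb minus Sst, and Eif1ad to -0.22, Eif3b to -0.30, Eif4g1 to -0.42 and Eif6 to -0.64 in Sst minus Camk2a. Called factors outside that rule also changed sign with offsets. In enrichment these were Eif1a at 0.57, Eif2s2 at 0.63 and Eif2ak2 at 0.053 in Sst at 60 min, Eif3l at 0.22 and Eif4a3 at 0.12 in Pvalb at 15 min, and Eif2d at 0.098, Eif4a1 at 0.0042 and Eif6 at 0.22 in Pvalb at 60 min. Eif4h came to -0.13 in the Pvalb response, and Eef1a2 to -0.081, Eif2s2 to 0.23, Eif4a3 to -0.042 and Eif4h to -0.27 in its difference to Camk2a.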

Other observations

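Direction of enrichment was not shared by all factors. Of the 60 factors tested in all 6 sets, 30 were called higher in the purified fraction in at least 1 set and never lower, beside 25.7% of all genes. Another 7 were called lower in at least 1 and never higher, namely Eif3l, Eif2a, Eif2b1, the kinase Eef2k and the eIF2alpha kinases Eif2ak1, Eif2ak3 and Eif2ak4, beside 37.5% of all genes. In 20 the call was higher in some sets and lower in others, beside 32.2% of all genes, and Eif4ebp2, Eif2b3 and Eif2s3y were called in no set. Few of the lower calls held with GC and length offsets. In Pvalb it was 2 of 12 at 60 min and 0 of 11 at 15 min. At the same times it was 1 of 13 and 1 of 3 in Sst, and 1 of 7 and 0 of 3 in Camk2a. The offsets also recentre each library, which can shift all enrichments of a set together. The part of that recentring in the lost calls was not tested.

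Among 9 factors listed as having mRNAs with a 5′ terminal oligopyrimidine tract, the element through which mTOR controls ribosomal mRNAs, 4 were higher and 1 lower in the purified Pvalb fraction at 60 min and 5 were higher at 15 min, beside 28% and 21.3% of all genes called higher. In Sst 8 were higher and 1 lower at 60 min and all 9 were higher at 15 min, beside 31.2% and 23.6%. In Camk2a 8 were higher at 60 min and 7 at 15 min, beside 22.2% and 22.9%. Of 36 partner genes 17 were higher and 9 lower in Pvalb at 60 min, beside 28% of all genes higher and 32.4% lower. Atf4, the stress-response transcription factor, was enriched by 1.24 ± 0.09 there, and Cyfip1, which represses initiation at the synapse as a partner of FMRP, stood at -1.56 ± 0.12.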
